A study of Mus musculus with 18 samples.

Results

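The genes of the splicing machinery named as small nuclear ribonucleoprotein (snRNP) or heterogeneous nuclear ribonucleoprotein (hnRNP) components were taken from an expression table of mouse ovarian cancer cells by their symbols. A gene belonged to the set when its symbol began with Hnrnp or Snrp, with Sf3a or Sf3b and a digit, or with Prpf and a digit, or was Lsm and a number, and 4 processed copies whose names carry "-ps" were left out. This gave 66 of 54532 genes, of which 65 passed the filter on low values (a mean of at least 1 FPKM, fragments per kilobase of gene and megafragment of library, over 18 libraries). Snrpn, a paralogue of the Sm protein gene Snrpb, was listed at 0 in all 18 libraries. The 65 tested genes were 7 of the Sm ring, 4 other proteins of the U1 and U2 particles, 9 of the SF3a and SF3b complexes, 11 LSm genes, 13 Prpf genes, 20 hnRNP genes and Snrpert, which GENCODE annotates as a processed pseudogene. The particle proteins Snrnp70 and Snrnp200 carry other symbols and were counted with the related genes described last.

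Introns are removed by the spliceosome, which is built from small nuclear RNAs and their proteins. A ring of Sm proteins (B, D1, D2, D3, E, F and G) holds the U1, U2, U4 and U5 RNAs, a related ring of LSm proteins holds U6, and a cytoplasmic LSm ring acts in mRNA decay. U1 recognises the start of an intron, U2 with its SF3a and SF3b complexes recognises the branch point, and the Prpf proteins belong mainly to the U4/U6.U5 particle and to the complexes that activate the catalytic core. The hnRNP proteins coat nascent RNA and shape which exons are used, and several of them control the processing of their own transcripts.

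KPCA.B cells, derived from the mouse and labelled as high-grade serous ovarian cancer, carried a control hairpin (shControl) or 1 of 2 hairpins against Ndufa5, a subunit of respiratory complex I (shNdufa5_1 and shNdufa5_2). Each was grown in conditioned medium from proliferating cells that had received the vehicle DMF (PCM) or from cells made senescent with cisplatin (SCM), in every group mixed with an equal part of fresh high-glucose DMEM holding heat-inactivated serum, EGF and the ITS-G supplement. There were 3 libraries of polyadenylated RNA in each of the 6 groups, and the design asks how the medium of senescent cells acts on bystander cells with and without Ndufa5. The labels do not state whether the 3 libraries of a group are separate cultures. The p-values thus refer to the spread among libraries, which may be technical. All comparisons concern 1 cell line, and in such bulk RNA fewer cells of a kind and less RNA per cell cannot be told apart.

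The libraries held 13.8 to 38.9 M (M, mega) fragments, a depth recovered from the steps between low values, and the 2 deepest were replicate 2 of shControl in each medium. The targeted gene was low with 1 of the 2 hairpins. Ndufa5 stood at 15.2, 19.0 and 22.1 FPKM in the shControl libraries in PCM and at 22.3, 26.2 and 20.9 in SCM. With shNdufa5_1 it was 6.23, 6.39 and 6.85 in PCM and 6.46, 6.78 and 6.23 in SCM, below every shControl library. The libraries labelled shNdufa5_2 held 18.7, 17.2 and 16.8 FPKM in PCM, within the range of shControl (log2 difference -0.08 ± 0.12 SE, limma adjusted p = 0.647), and 14.6, 16.1 and 20.2 in SCM (-0.43 ± 0.12, limma adjusted p = 0.0125). Directions drawn from shNdufa5_2 below therefore come from libraries that kept most of their Ndufa5 RNA. Of 11 epithelial marker genes 6 averaged at least 1 FPKM, the keratins Krt7, Krt8, Krt18 and Krt19, Cldn3 and Pax8. Epcam reached at most 0.399 FPKM in any library, Cldn4 0.584 and Cdh1 1.37, and Wt1 and Muc16 were listed at 0 in all 18 libraries. The summed level of that list was 1092 to 1172 FPKM in shControl PCM and 1669 to 1782 in shControl SCM. Immune, endothelial, fibroblast and mesothelial lists had 1 of 8, 1 of 6, 3 of 8 and 1 of 4 genes at that level, with Cd3e, Itgam, Emcn and Thy1 at 0. All of those detected marker genes rose with SCM in shControl, for example the immune list from 2.01 to 2.25 FPKM summed to 5.92 to 7.07 FPKM, and their part in the results was not tested.

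Across all libraries the members' levels ran from a mean of 2.44 FPKM for Prpf39, a factor of the U1 particle, to 181 FPKM for Snrpb, which encodes the Sm proteins B and B'. Sf3b2 (129 FPKM), Lsm4 (122), Hnrnpa1 (109) and Prpf8 (102) followed Snrpb, while Hnrnpr (3.69 FPKM) and Lsm11 (4.16), a subunit of the U7 particle that cuts histone transcripts, lay near the low end. The members together took 1.01 to 1.03% of the fragments in shControl PCM and 0.914 to 0.922% in shControl SCM. With shNdufa5_1 they took 1.16 to 1.18% in PCM and 1.02 to 1.05% in SCM, above the shControl libraries of the same medium.

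**Figure D1:**
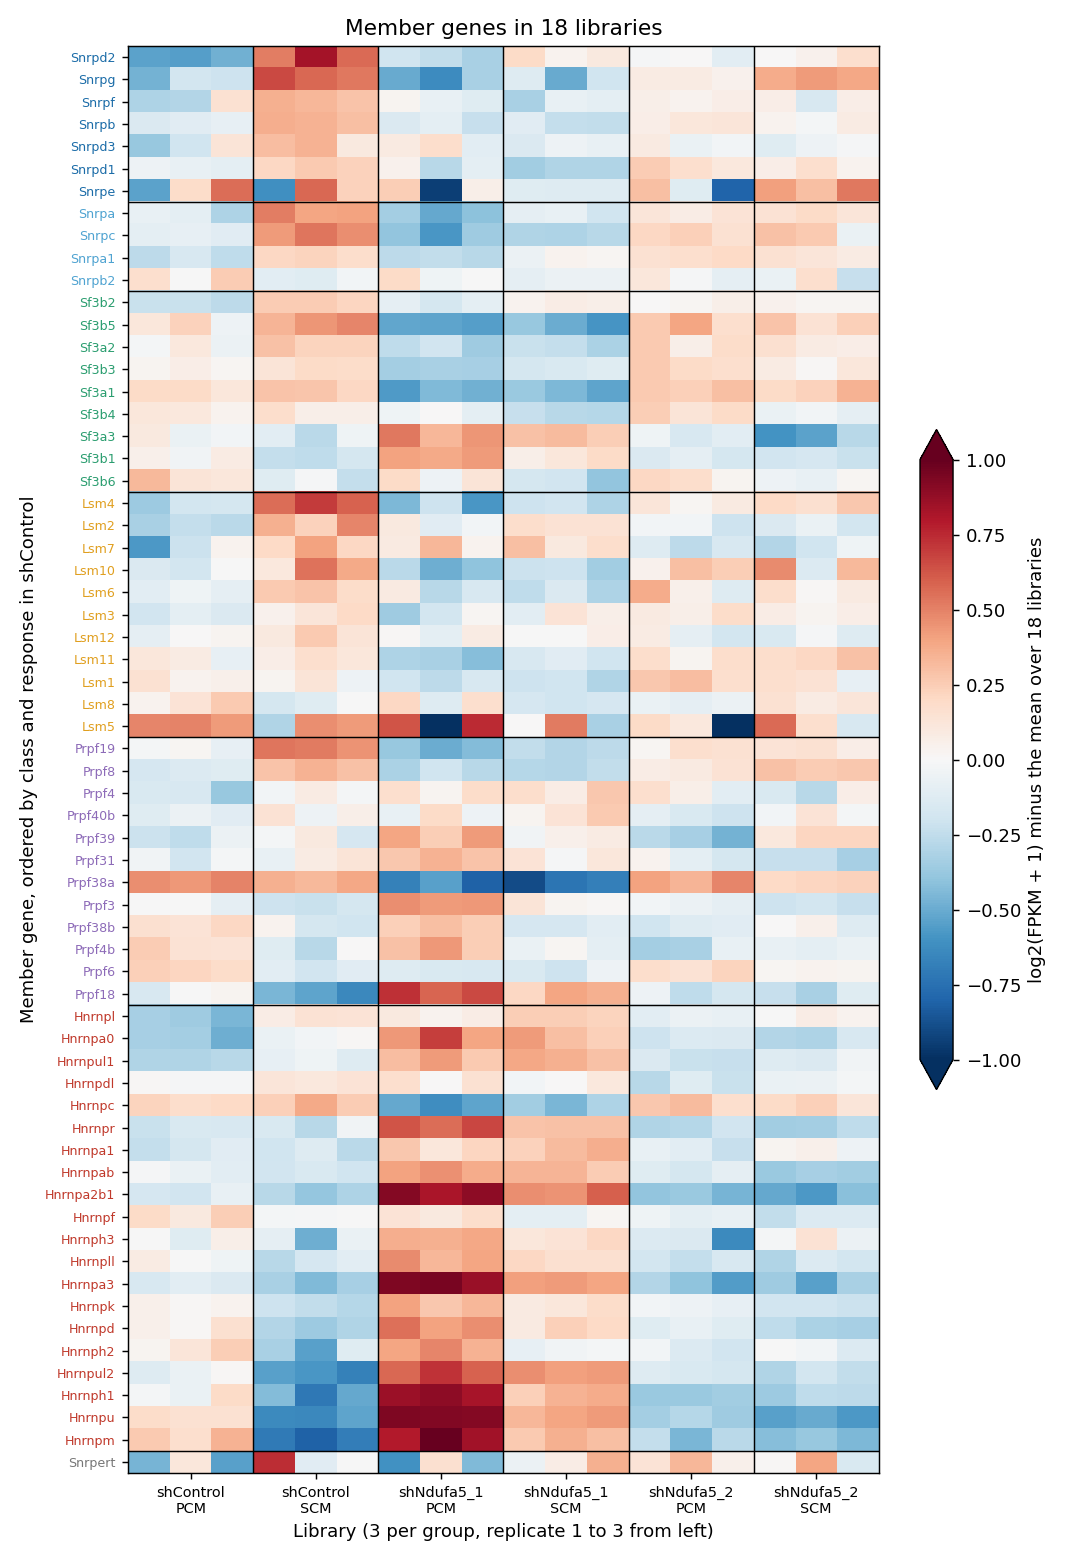
Each row is a tested member (1 is not shown), grouped by class and ordered within a class by its response to SCM in shControl, and each column is 1 of 18 libraries; colour gives log2(FPKM + 1) minus the gene's mean over the 18 libraries, cut at 1 in either direction. Snrpd2 and Lsm4 are reddest in shControl SCM, most hnRNP genes are reddest in shNdufa5_1 PCM, and Lsm5 and Snrpe vary among replicates.

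Promoter stretches are shown for members of 4 classes with large responses to SCM in shControl, Snrpa, Sf3b2 and Prpf19 upward and Hnrnpu and Hnrnph1 downward, so that the letters before genes that moved together can be read side by side. They were picked after their values were seen. RefSeq promoter windows (GRCm38.p6, 250 bases before to 50 after the annotated start) were found for 54 of the 66 members. The stretches below are the 200 bases before the start, 5′ to 3′ on the gene's own strand, and lie outside the GENCODE gene. They are Snrpa at chr7:27196272-27196471 (minus strand), Sf3b2 at chr19:5295456-5295655 (minus), Prpf19 at chr19:10895031-10895230 (plus), Hnrnpu at chr1:178337816-178338015 (minus) and Hnrnph1 at chr11:50376790-50376989 (plus). Capitals mark any of 7 searched motifs on either strand: the E-box CACGTG, the ETS site CCGGAAG, the GC box GGGCGG, the CCAAT box, the YY1 core ATGGCGG, the TATA box TATAAA and the NRF1 core GCATGCG.
Snrpa: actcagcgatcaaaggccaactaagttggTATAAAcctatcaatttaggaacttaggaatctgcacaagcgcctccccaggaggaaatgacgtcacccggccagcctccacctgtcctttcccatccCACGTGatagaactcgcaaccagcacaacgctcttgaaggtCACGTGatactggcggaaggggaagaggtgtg
Sf3b2: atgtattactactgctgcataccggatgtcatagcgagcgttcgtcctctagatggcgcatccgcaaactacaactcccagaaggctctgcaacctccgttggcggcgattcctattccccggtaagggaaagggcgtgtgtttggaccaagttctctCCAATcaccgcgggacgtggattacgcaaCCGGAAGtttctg
Prpf19: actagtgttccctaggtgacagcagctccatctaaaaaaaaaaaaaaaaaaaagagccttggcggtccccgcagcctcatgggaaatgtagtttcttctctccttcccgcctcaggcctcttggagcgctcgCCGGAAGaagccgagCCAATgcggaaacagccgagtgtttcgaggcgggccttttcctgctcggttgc
Hnrnpu: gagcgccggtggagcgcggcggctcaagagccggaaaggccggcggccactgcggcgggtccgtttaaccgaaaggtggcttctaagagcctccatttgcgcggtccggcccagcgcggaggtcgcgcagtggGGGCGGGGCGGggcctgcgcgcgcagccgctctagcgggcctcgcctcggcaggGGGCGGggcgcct
Hnrnph1: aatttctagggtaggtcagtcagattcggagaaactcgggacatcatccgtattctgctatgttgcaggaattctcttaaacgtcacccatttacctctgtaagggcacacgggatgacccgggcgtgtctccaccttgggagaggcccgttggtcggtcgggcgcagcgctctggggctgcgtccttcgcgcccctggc
The Snrpa stretch held 2 E-boxes and 1 TATA box, Sf3b2 and Prpf19 each held 1 ETS site and 1 CCAAT box, Hnrnpu held 3 GC boxes (a pair of them overlapping) and no searched motif was in that of Hnrnph1. RefSeq gives Hnrnph1 5 starts, and the stretches before the other 4, which lie inside the GENCODE gene, each held at least 1 searched motif. Snrpa, Sf3b2 and Prpf19 have 2 starts each. The other Snrpa stretch held 1 E-box and no TATA box, and the other Prpf19 stretch held 1 CCAAT box and no ETS site. That of Sf3b2 held the same motifs as the one shown. A match is a run of letters and not a shown site. Over the 300-base windows, the ETS letters were in 27.4% of the members' windows and 8.86% of all RefSeq windows, and in windows of 6 of the 7 SF3 genes that had one. The YY1 core was in 20.5% of members' and 4.05% of all windows, the NRF1 core in 13.7 and 3.58%, the E-box in 15.1 and 7.15%, the GC box in 63.0 and 35.7%, the CCAAT box in 49.3 and 37.4%, and the TATA box in 6.85 and 13.6%. Genes with several annotated starts count once per window. For the NRF1 core, 4 of the members' 10 windows with it were those of 1 gene, Snrpn, which did not pass the filter on low values. The windows of all RefSeq genes (27025 genes) were not limited to tested genes and not matched for GC content. Whether the members differ from other tested genes in these motifs was not tested, so the shares are not read as particular to the members.

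SCM split the set by class in shControl cells. Of 65 members 27 rose and 22 fell (limma adjusted p under 0.05 over all 11084 genes), beside 31.7% of all tested genes that rose and 30.2% that fell, so the counts themselves were near the background while the classes differed in direction. Among Sm ring genes 6 of 7 rose and 0 fell (median log2 difference 0.46), and 3 of 4 U1 and U2 genes rose. Of 11 LSm genes 7 rose and 1 fell (median 0.26). Of 20 hnRNP genes 4 rose and 12 fell (median -0.19), and of 13 Prpf genes 3 rose and 6 fell. The median of all members was 0.09, and that of all tested genes was 0.0034.

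**Figure D2:**
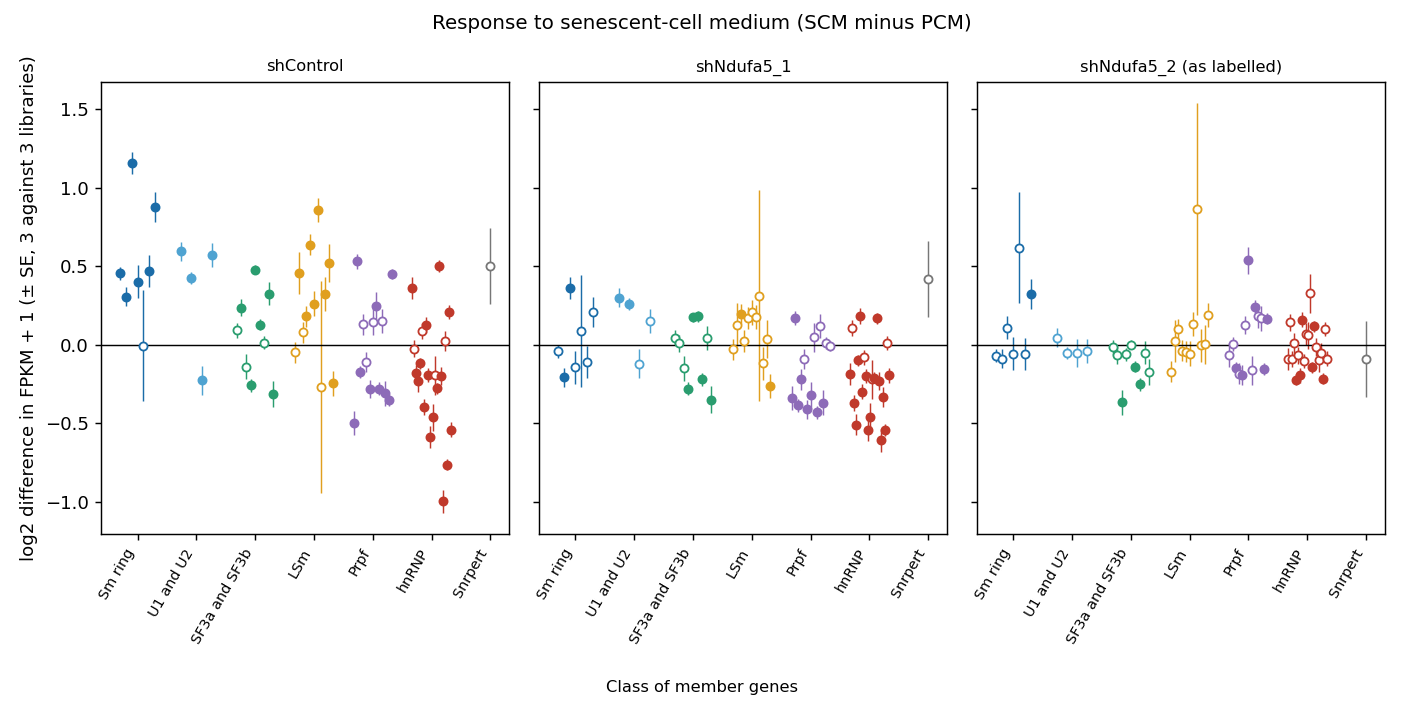
Each point is a member's log2 difference in FPKM + 1 between SCM and PCM with its standard error (3 against 3 libraries), by class, for each hairpin; filled points passed the limma test and open points did not. In shControl Sm ring and LSm genes lie mostly above 0 and hnRNP genes mostly below, whereas with the libraries labelled shNdufa5_2 most points are open and near 0.

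Snrpd2, the D2 subunit of the Sm ring (chromosome 7, 19149722 to 19153542, plus strand, in GRCm38), had the largest rise of the set. It stood at 24.9, 24.6 and 25.9 FPKM in the shControl libraries in PCM and at 52.5, 65.7 and 54.7 in SCM, a log2 difference of 1.16 ± 0.07 (SE), or 2.23-fold on the FPKM + 1 scale (limma adjusted p = 1.75e-09). Every SCM library was above every PCM library. Snrpg, the G subunit (chromosome 6, 86371304 to 86379328), went from 22.3, 27.5 and 27.1 FPKM to 50.1, 47.2 and 45.6, a log2 difference of 0.87 ± 0.09 (limma adjusted p = 9.89e-07). The groups of Snrpg did not overlap either. Snrpf (0.47 ± 0.10), Snrpb (0.46 ± 0.04), Snrpd3 (0.40) and Snrpd1 (0.31 ± 0.06) rose by less on the log2 scale. Snrpe, the remaining subunit, ran from 15.4 to 36.4 FPKM within shControl SCM alone and did not pass the test (log2 difference -0.0044, 95% interval -0.76 to 0.75), so a change as large as that of Snrpf was not detectable for it.

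Of the 4 genes for proteins of the U1 and U2 particles outside SF3, 3 rose and 1 fell. Snrpa, the A protein of U1, was at 45.9, 45.3 and 38.9 FPKM in PCM and at 69.5, 63.9 and 64.2 in SCM (log2 difference 0.59 ± 0.06, limma adjusted p = 4.61e-07). Snrpc, the U1 C protein that contacts the start of the intron, was at 22.2, 22.4 and 22.0 FPKM in PCM and at 32.3, 35.0 and 33.2 in SCM (0.57 ± 0.08). Both sets of libraries were apart. Snrpa1, the A' protein of U2, rose by 0.43 ± 0.04, whereas Snrpb2, its partner B'', fell by 0.23 on the log2 scale (limma adjusted p = 0.042), a call lost in 8 of the fits that left out 1 library. Among the SF3 genes Sf3b2 rose from 109, 110 and 107 FPKM to 153, 153 and 149 (0.48 ± 0.03), and Sf3b5, Sf3a2 and Sf3b3 rose as well. Sf3b1, the scaffold of the branch point complex, fell by 0.26, and Sf3b6, which it holds at the branch point, fell by 0.31. With library totals of fragments made equal, a scaling described below, the difference of Sf3a2 was -0.0084.

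Lsm4, a subunit of both LSm rings, had the largest rise in its class. It was at 91.6, 104 and 105 FPKM in PCM and at 175, 193 and 179 in SCM (log2 difference 0.86 ± 0.08, limma adjusted p = 1.30e-07), with no overlap. Lsm2 (0.64 ± 0.07), Lsm7 (0.52), Lsm10 (0.46), Lsm6 (0.32), Lsm3 (0.26) and Lsm12 (0.18) rose on the same scale, of which Lsm10 belongs to the U7 particle. Lsm8, the subunit that sets the nuclear ring apart from the cytoplasmic one, fell by 0.25 (limma adjusted p = 0.012). Lsm1, its cytoplasmic counterpart, did not pass the test (-0.05).

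Among the Prpf genes the directions were mixed. Prpf19, a ubiquitin ligase of the activating complex, rose from 40.6, 41.7 and 38.8 FPKM to 60.2, 59.4 and 56.5 (log2 difference 0.53 ± 0.05, limma adjusted p = 6.87e-08). Prpf8, the large protein at the catalytic centre, rose from 89.2, 90.8 and 91.9 FPKM to 122, 128 and 123 (0.45 ± 0.03). In both the SCM libraries lay above all PCM libraries. Prpf18, a second-step factor, fell from 7.10, 8.06 and 8.24 FPKM to 5.60, 5.29 and 4.8 (-0.50 ± 0.08), and Prpf6, which bridges the tri-snRNP, fell from 53.7, 52.8 and 51.7 to 42.0, 39.5 and 41.8 (-0.35 ± 0.04). The kinase Prpf4b, Prpf38b and Prpf3 were among the others that fell, by 0.31, 0.28 and 0.17.

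Hnrnpm, a regulator of alternative exons (chromosome 17, 33646233 to 33686860, minus strand), had the largest fall. It was at 37.4, 35.0 and 39.8 FPKM in PCM and at 18.6, 17.3 and 18.8 in SCM, a log2 difference of -0.996 ± 0.075, or 2.00-fold lower on the FPKM + 1 scale (limma adjusted p = 1.71e-08). The 3 SCM libraries lay far below the 3 PCM libraries. Hnrnpu, a nuclear scaffold protein, went from 39.8, 38.9 and 38.9 FPKM to 22.2, 22.0 and 24.0 (-0.76 ± 0.04, limma adjusted p = 1.32e-10), again without overlap. Hnrnph1, which binds runs of G, was at 27.3, 26.4 and 31.7 FPKM in PCM and at 20.2, 16.5 and 19.1 in SCM (-0.59 ± 0.07), and Hnrnpul2 was at 30.0, 31.4 and 33.2 in PCM and at 22.3, 21.7 and 20.2 in SCM (-0.54 ± 0.05). Against the majority of the class Hnrnpl rose from 41.2, 40.6 and 37.7 FPKM to 54.8, 57.9 and 57.5 (0.50 ± 0.04), and Hnrnpa0 rose from 61.5, 61.0 and 55.0 to 74.1, 76.3 and 78.0 (0.36 ± 0.07). Hnrnpul1 (0.21) and Hnrnpdl (0.13) rose on the deposited scale but stood at -0.03 and -0.11 with fragment totals made equal.

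**Figure D3:**
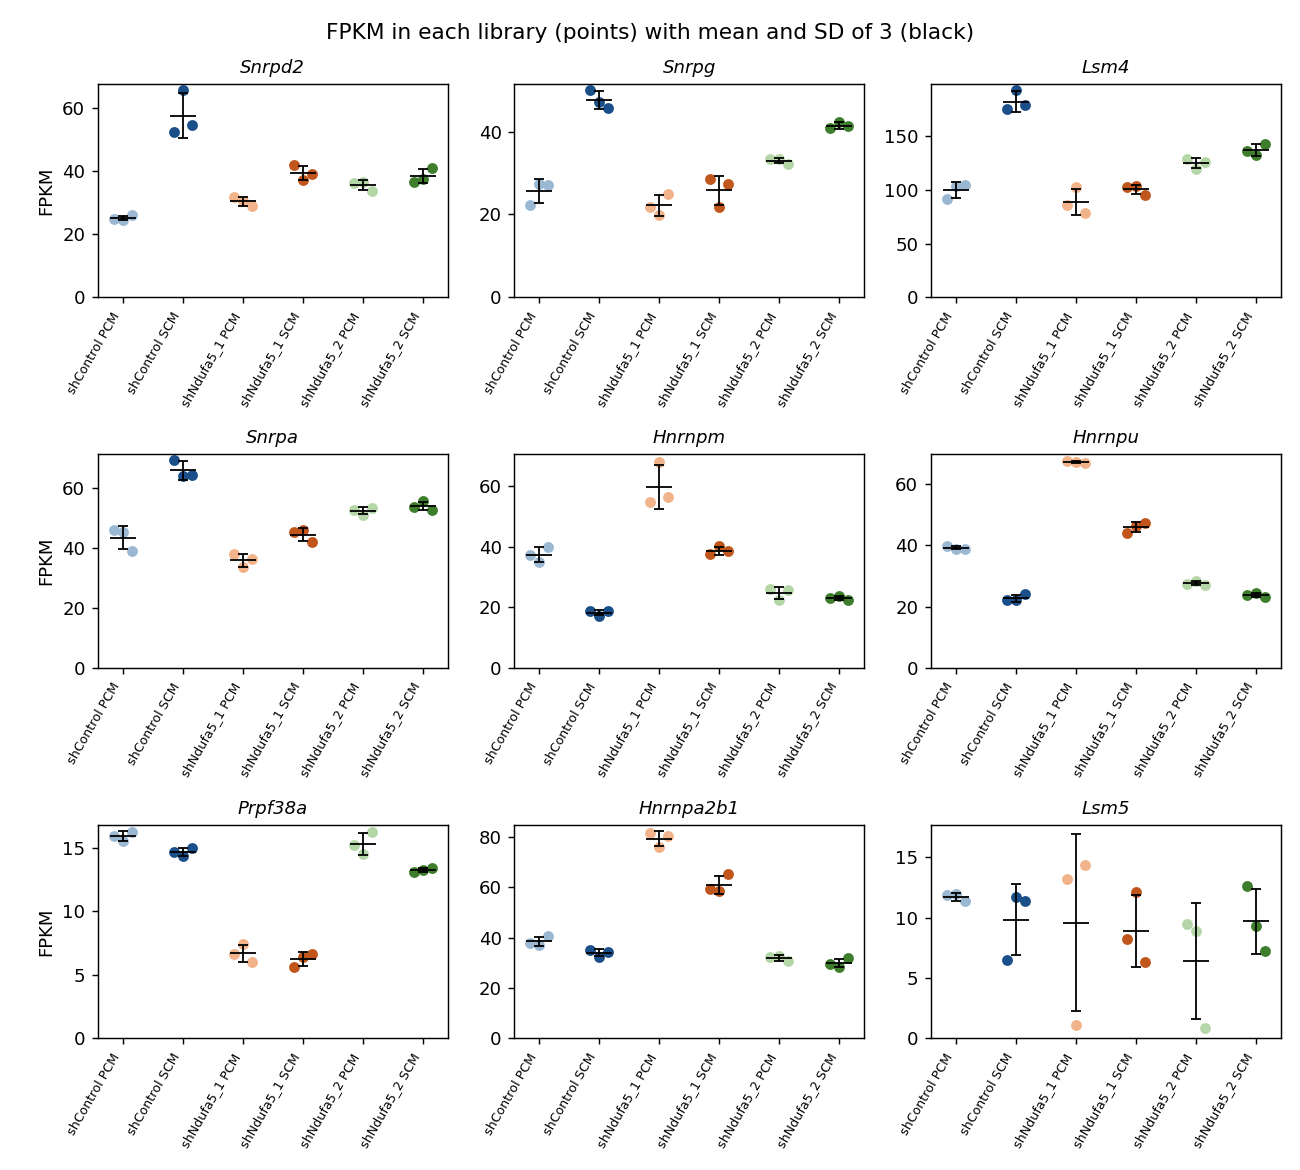
FPKM of 9 members in each library (points, 3 per group), with the mean and SD of 3 in black and each axis starting at 0. Snrpd2, Snrpg and Lsm4 are highest in shControl SCM, Hnrnpm, Hnrnpu and Hnrnpa2b1 are highest in shNdufa5_1 PCM, Prpf38a is low in all 6 shNdufa5_1 libraries, and Lsm5 varies within groups.

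The directions are relative to the median gene, because the deposited values are already scaled to one another. Under other scalings the split of 27 rises and 22 falls became 13 and 32 with fragment totals made equal (a scaling chosen after seeing the data, which moved the median of all genes to -0.20), 2 and 47 with FPKM sums made equal (median of all genes -0.50), and 19 and 27 after quantile normalization. The Sm ring had 3, 1 and 3 rises under these, and 0, 2 and 0 falls. Making FPKM sums or fragment totals equal multiplies all genes of a library by 1 factor. Member counts under these scalings, here and below, are therefore not read as particular to the members. Quantile normalization does not use 1 factor, but the shares of all tested genes called after it are not given here. Its member counts, here and below, are not read as particular to the members either. Against a median gene of -0.20, the Sm ring's median with fragment totals made equal was 0.21, that of the LSm genes 0.04 and that of the hnRNP genes -0.42. A short RNA gene, Gm23935, took 0.0889 to 0.157% of fragments in shControl PCM and 0.358 to 0.521% in shControl SCM. Its part in these scalings was not tested.

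GC content and length moved with the response. Over the 65 members the SCM difference in shControl had a Spearman correlation of 0.525 with the GC content of the longest transcript and -0.396 with exon length, and over 11074 genes the values were 0.527 and -0.322. These points share their libraries. Sm ring genes were short (median 1976 bases of exon) and hnRNP genes long (5897.5) and lower in GC (43.9% against 46.5%). With each library's trend on GC and length removed, 32 members rose and 8 fell, beside 3253 and 2310 of 11074 genes. Of the 27 rises 23 were kept, among them those of 6 Sm ring genes, and of the 22 falls 7 were kept, with Hnrnpm at -0.90, Hnrnpul2 at -0.45, Prpf6 at -0.41 and Hnrnpu at -0.38. The hnRNP class then had 7 rises and 5 falls, Hnrnph1 was at -0.15 (limma adjusted p = 0.0677), and the differences of Lsm8 (0.12), Sf3b1 (0.09), Prpf4b (0.07) and Snrpb2 (0.07) were above 0 while that of Sf3a2 was below it (-0.11).

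**Figure D4:**
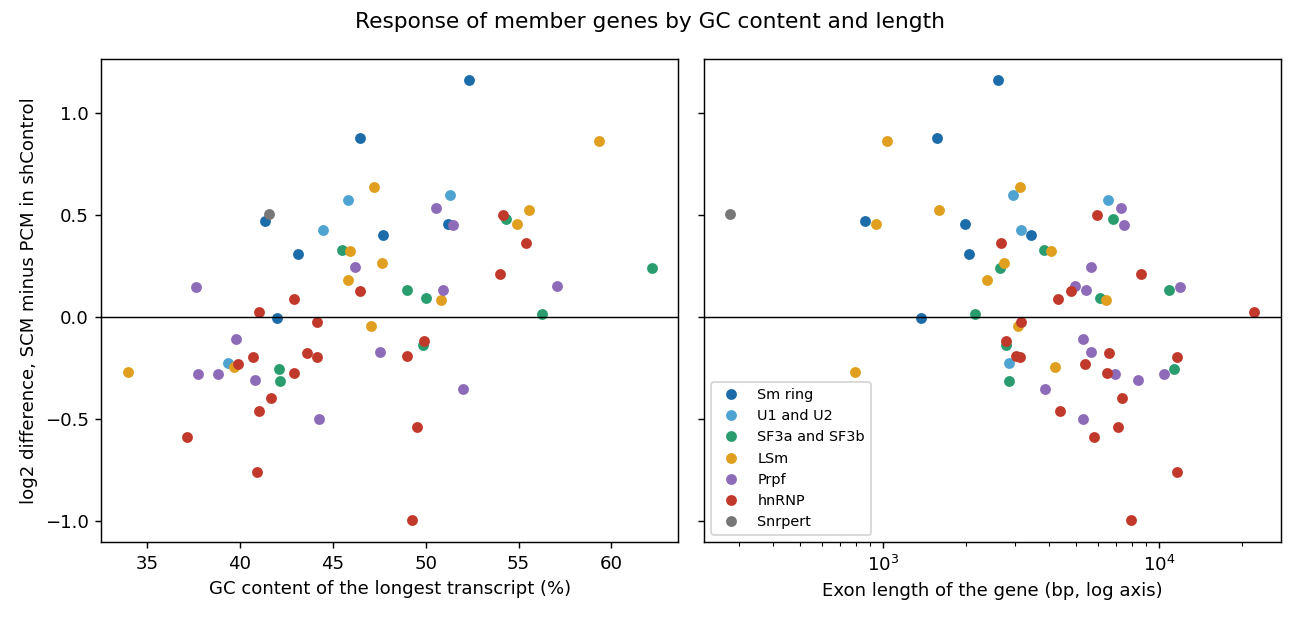
Each point is a tested member, coloured by class, with its log2 difference between SCM and PCM in shControl against the GC content of its longest transcript (left, %) and its exon length (right, bp, log axis). The Spearman correlation over the 65 members was 0.525 with GC content and -0.396 with length, and Hnrnpm lies below the other members of like GC content.

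With the hairpins the response of the Sm and LSm genes was mostly below the test's threshold. With shNdufa5_1, 9 of 65 members rose with SCM and 26 fell (22.5 and 19.8% of all tested genes), of which 14 were hnRNP and 7 Prpf genes, while 1 Sm ring gene rose and 1 fell. With the libraries labelled shNdufa5_2, 6 rose and 10 fell (11.7 and 11.1% of all tested genes), and the rises were 3 without SCM replicate 2 or without SCM replicate 3 of that hairpin. Snrpd2 with shNdufa5_1 was at 31.7, 30.6 and 29.0 FPKM in PCM and at 41.9, 37.3 and 39.2 in SCM (log2 difference 0.36 ± 0.07, limma adjusted p = 0.000765). With shNdufa5_2 it was at 36.2, 36.5 and 33.8 in PCM and at 36.7, 37.6 and 41.0 in SCM (0.11 ± 0.07, limma adjusted p = 0.294). Both PCM groups lay above shControl PCM and both SCM groups below shControl SCM, with no overlap. Hnrnpm with shNdufa5_1 fell from 54.7, 68.0 and 56.4 FPKM to 37.5, 40.1 and 38.4 (-0.61 ± 0.07), and with shNdufa5_2 it was 26.2, 22.4 and 25.5 in PCM and 22.9, 23.6 and 22.5 in SCM (-0.10 ± 0.07). Of the 27 members that rose in shControl 7 rose and 2 fell with shNdufa5_1, and 4 rose and 1 fell with shNdufa5_2. Of the 22 that fell, 20 fell with shNdufa5_1, and 6 fell and 1 rose with shNdufa5_2. These counts of calls kept from shControl were not taken over all genes, so they are not read as particular to the members. On other scalings the splits with shNdufa5_2 were 4 rises and 16 falls (fragment totals), 1 and 0 (FPKM sums) and 9 and 9 (trend on GC and length removed, beside 1282 and 1141 of 11074 genes). With shNdufa5_1 they were 2 and 23 with FPKM sums made equal and 9 and 16 with the trend removed, beside 1769 and 1428 genes.

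The difference in response was tested directly, as the mean response of both hairpins minus that of shControl. It was lower than 0 for 25 members and higher for 7 (limma adjusted p under 0.05), beside 21.5 and 17.2% of all tested genes. This difference contains the shControl response, so it is not independent of the values given for shControl above. Of 7 Sm ring genes 6 had a lower response with the hairpins (class median -0.51), as had 3 of 4 U1 and U2 genes, 4 of 9 SF3 genes and 4 of 11 LSm genes, with 0 higher in these classes. Snrpd2 had the largest difference (-0.92 ± 0.09, limma adjusted p = 9.68e-07), followed by Lsm4 (-0.70 ± 0.09), Snrpg (-0.61 ± 0.12) and Lsm2 (-0.57 ± 0.08). Among hnRNP genes 4 were lower and 4 higher in the average, but the hairpins differed. Taken singly, shNdufa5_1 had 3 hnRNP genes higher and 6 lower, and shNdufa5_2 had 8 higher and 2 lower. Over all members shNdufa5_1 had 4 higher and 26 lower, beside 10.7 and 15.5% of all tested genes. For shNdufa5_2 these were 16 and 24, beside 18.9 and 24.1%. The Sm ring had 6 lower and 0 higher with each. The higher ones in the average were Hnrnpm (0.64 ± 0.09), Hnrnpul2 (0.40 ± 0.06), Hnrnpu (0.38 ± 0.05) and Hnrnph1 (0.35 ± 0.09). The value of Hnrnph1 came mainly from the libraries labelled shNdufa5_2. With SCM its mean went from 28.4 to 18.6 FPKM in shControl and from 51.0 to 34.8 with shNdufa5_1. With shNdufa5_2 it went from 21.3 to 22.4. With FPKM sums made equal Lsm4 (-0.11), Snrpg (-0.02) and Lsm2 (-0.0077) no longer passed the test, with limma adjusted p of 0.198, 0.902 and 0.959. The split of 7 higher and 25 lower became 22 and 15 with fragment totals made equal, 43 and 1 with FPKM sums made equal, 13 and 15 after quantile normalization, and 4 and 32 with the GC and length trend removed, beside 1033 and 2119 of 11074 genes. The Sm ring had 5, 1, 3 and 6 lower responses under these and 0 higher.

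In PCM most hnRNP genes were higher with shNdufa5_1, and the calls with shNdufa5_2 were mostly downward. With shNdufa5_1, 29 of 65 members were higher than in shControl and 14 lower (25.6 and 27.1% of all tested genes), and 17 of 20 hnRNP genes were higher (median 0.46). With shNdufa5_2, 18 were higher and 15 lower (19.3 and 16.3% of all tested genes), with 2 hnRNP genes higher and 10 lower (median -0.19). With the GC and length trend removed 3 hnRNP genes were higher with shNdufa5_2 and 5 lower (median -0.07). Hnrnpa2b1, which packages nascent RNA and sorts transported RNA, was at 37.8, 37.2 and 40.4 FPKM in shControl PCM and at 81.5, 75.9 and 80.1 with shNdufa5_1 (log2 difference 1.02 ± 0.05, limma adjusted p = 3.75e-10). With shNdufa5_2 it was at 32.1, 32.8 and 30.7 (-0.26 ± 0.05, limma adjusted p = 0.000961), below the shControl libraries. Hnrnpa3, its close relative, was at 7.13, 7.48 and 7.25 FPKM in shControl, at 16.4, 16.6 and 15.6 with shNdufa5_1 (1.05 ± 0.07) and at 6.44, 5.89 and 5.19 with shNdufa5_2 (-0.28 ± 0.07). Hnrnpu was at 67.6, 67.3 and 67.0 with shNdufa5_1 (0.76 ± 0.04) and at 27.5, 28.5 and 27.1 with shNdufa5_2 (-0.49 ± 0.04). Each of these 3 genes had its shNdufa5_1 libraries above and its shNdufa5_2 libraries below shControl.

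Against the rest of its class Hnrnpc, which coats long nascent transcripts, fell with shNdufa5_1 from 103, 99.6 and 101 FPKM to 61.6, 56.8 and 60.8 (-0.75 ± 0.05, limma adjusted p = 1.18e-08). Its shNdufa5_2 libraries, at 107, 110 and 98.9 FPKM, overlapped shControl. Prpf38a, a factor of spliceosome activation, had the largest fall of the set with this hairpin, from 16, 15.5 and 16.3 FPKM to 6.67, 7.40 and 6 in PCM (-1.14 ± 0.06, limma adjusted p = 1.24e-09) and to 5.60, 6.39 and 6.65 in SCM (-1.12 ± 0.06). With shNdufa5_2 it was at 15.2, 14.5 and 16.2 in PCM (-0.05 ± 0.06). Sf3a1 fell from 41.8, 41.9 and 39.6 FPKM to 24.4, 26.6 and 25.9 with shNdufa5_1 in PCM (-0.66 ± 0.05), and Sf3b5 from 17.4, 18.9 and 15.4 to 10.9, 10.8 and 10.6 (-0.63 ± 0.07). Neither passed the test with shNdufa5_2 in PCM.

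**Figure D5:**
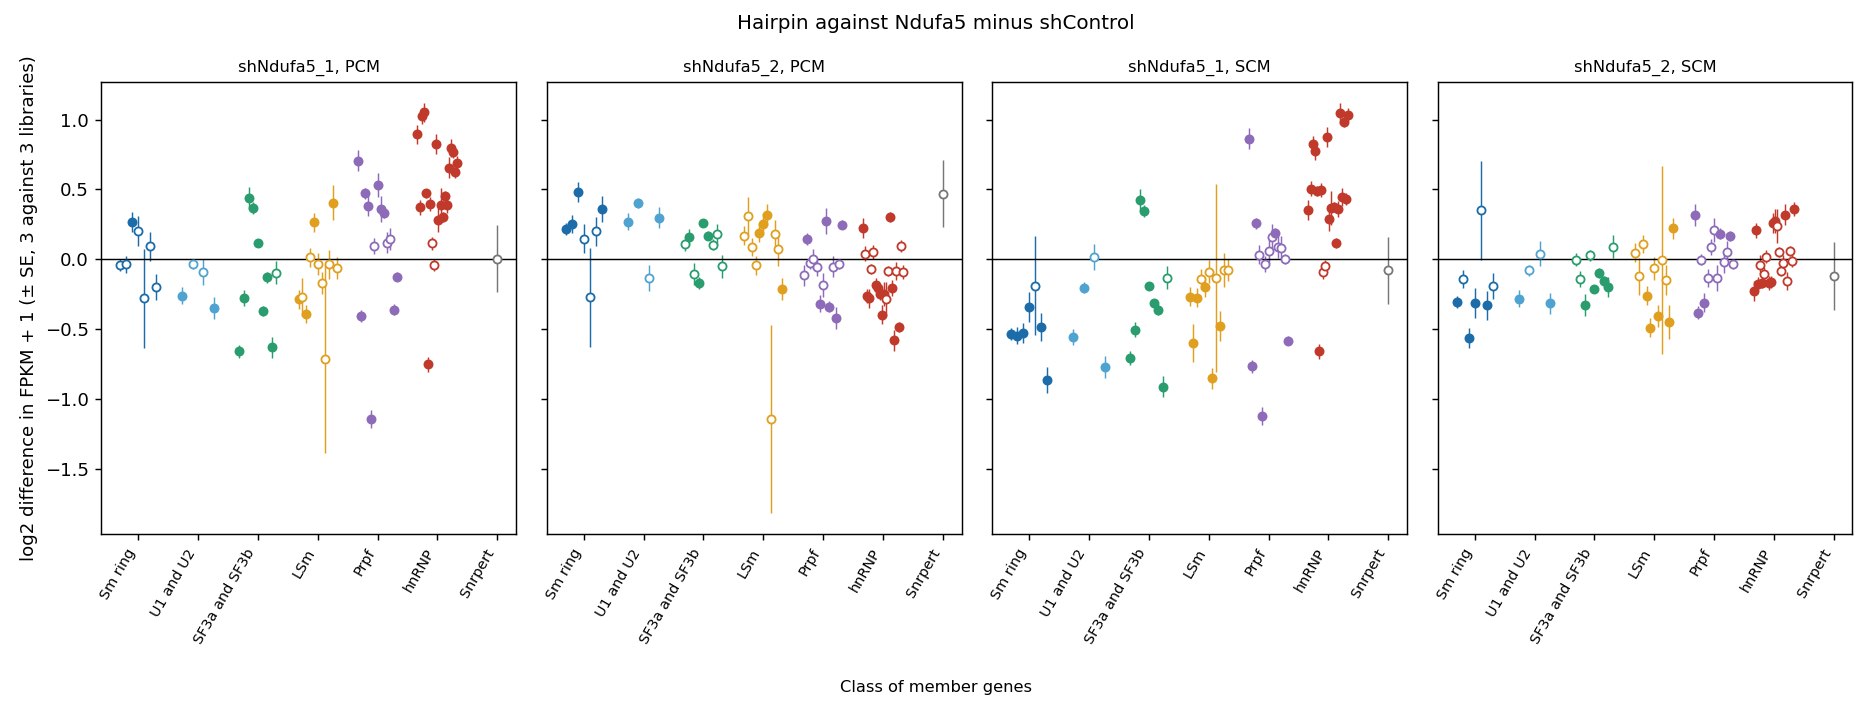
Each point is a member's log2 difference in FPKM + 1 from shControl in the same medium with its standard error (3 against 3 libraries), by class; filled points passed the limma test. Most hnRNP genes lie above 0 with shNdufa5_1 in both media, and below 0 or open with shNdufa5_2 in PCM, while Sm ring genes lie mostly below 0 in SCM with either hairpin.

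The hairpins share their shControl libraries, so their values are given side by side, with shNdufa5_1 first. In PCM Snrpd2 (0.26 and 0.48), Hnrnpa0 (0.89 and 0.22), Hnrnpl (0.45 and 0.30) and Prpf4 (0.36 and 0.27) were higher than in shControl in each comparison. Snrpa (-0.26 and 0.27), Snrpc (-0.35 and 0.30), Prpf19 (-0.41 and 0.14) and Prpf8 (-0.12 and 0.25) were lower in the first and higher in the second. Over the set in PCM, 6 members were called higher with both hairpins, 0 lower with both and 16 in opposite directions. Of these 16, 10 were higher with shNdufa5_1 and 6 lower. In SCM 7 were higher with both, 13 lower with both and 4 opposite. Such counts were not taken over all genes. With FPKM sums made equal the split was 20 higher and 18 lower for shNdufa5_1 and 0 and 40 for shNdufa5_2. For shNdufa5_2 it was 10 and 22 with fragment totals made equal, 10 and 18 after quantile normalization and 19 and 5 with the GC and length trend removed, beside 1753 and 1135 of 11074 genes.

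In SCM 6 of 7 Sm ring genes and 6 of 11 LSm genes were lower with shNdufa5_1 than in shControl and 0 higher. With shNdufa5_1, 22 members were higher and 25 lower (28.7 and 31.1% of all tested genes), with 17 of 20 hnRNP genes higher (median 0.44) and a Sm ring median of -0.53. With shNdufa5_2, 9 were higher and 22 lower (13.9 and 20% of all tested genes), with 4 Sm ring, 4 LSm and 5 SF3 genes lower, 1 LSm gene higher and 5 hnRNP genes in each direction. With FPKM sums made equal the LSm genes had 4 higher and 1 lower with shNdufa5_1 and 3 and 0 with shNdufa5_2, and the Sm ring had 1 lower with each. Lsm4 was at 175, 193 and 179 FPKM in shControl, at 102, 103 and 95.4 with shNdufa5_1 (-0.85 ± 0.08) and at 136, 132 and 143 with shNdufa5_2 (-0.41 ± 0.08), so every hairpin library was below every control. Snrpd2 (-0.53 and -0.57), Prpf19 (-0.77 and -0.38) and Snrpf (-0.49 and -0.33) were also lower with both, and Hnrnpm (1.04 and 0.32), Hnrnpul2 (1.03 and 0.36), Prpf18 (0.86 and 0.32) and Hnrnph2 (0.29 and 0.27) higher with both. With shNdufa5_1 the split was 28 higher and 19 lower with fragment totals made equal, 39 and 9 with FPKM sums made equal and 17 and 31 with the trend removed (2637 and 3511 of 11074 genes). With shNdufa5_2 it was 15 and 11, 30 and 1, and 5 and 29 (890 and 1834 genes), and 11 and 7 after quantile normalization.

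Related genes outside the name pattern were counted from lists chosen with earlier results known. With SCM in shControl 16 of 44 other core spliceosome genes rose and 11 fell, and all lists in this medium comparison stand beside 31.7% of all tested genes that rose and 30.2% that fell. U2af2, which binds the polypyrimidine tract (log2 difference 0.55), Sart1 (0.51) and the U5 protein gene Txnl4a (0.63) rose, while the helicases Ddx42 (-0.89) and Ddx46 (-0.52) and Rbmx (-0.55) fell. Of 17 tested genes of snRNP assembly and import 3 rose and 8 fell. Among them Gemin8 (0.64) went upward, and Tgs1 (-0.58), which methylates the cap of snRNAs, Wdr77 (-0.52) and Strap (-0.48) downward. Of 31 other splicing regulators 7 rose, such as Raly (0.53), and 16 fell, with the paraspeckle genes Pspc1 (-1.14) and Sfpq (-1.08) and Qk (-0.67) lowest. Nono, a paraspeckle gene of the same list, went the other way and rose by 0.22. Minor spliceosome genes had 2 rises and 3 falls of 9, and exon junction genes 3 and 2 of 9. The regulators were higher with shNdufa5_1 in PCM in 23 of 31 cases and lower in 3 (25.6 and 27.1% of all tested genes), and with shNdufa5_2 higher in 5 and lower in 14 (19.3 and 16.3%). The averaged interaction was positive for Sfpq (0.77), Pspc1 (0.64) and Ddx42 (0.58) and negative for U2af2 (-0.52), Sart1 (-0.51), Raly (-0.46) and Nono (-0.22), all past the test.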

How the data were processed

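Libraries of polyadenylated RNA from KPCA.B cells were prepared with NEBNext Ultra II reagents (per the protocols in the labels), 18 in 6 groups of 3 by hairpin and medium. The authors deposited FPKM values for 54532 Ensembl mouse genes. Per the submitters' processing notes the tools were STAR 2.6.1 and DESeq2, with GRCm38 and mm10 as builds. How fragments were counted, over which lengths and by which strand is not given in the sources used here, so genes with near-identical copies or antisense partners are uncertain. Low FPKM values were whole multiples of a step, within 0.1 fragments for 96.6 to 99.8% of values of at most 20 fragments, which gave depths of 13.8 to 38.9 M fragments (M, mega).

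In R 4.3.3 (package data.table, version 1.17.8), limma 3.58.1 was run on log2(FPKM + 1), which shrinks changes of low genes. The model had 6 group coefficients, moderated variances with a mean trend, and no block for replicate number. The 11084 genes with a mean of at least 1 FPKM were kept, and each of 8 two-sided contrasts was adjusted by Benjamini-Hochberg over all of them, with a call at an adjusted p under 0.05. The interaction of each single hairpin was fitted and adjusted in the same way. The fit was tested on simulated data. Positions, lengths and GC content came from GENCODE M21 on GRCm38, for 11074 of the tested genes, and promoters from RefSeq. Python 3.11.15, pandas 2.3.3 and matplotlib 3.10.9 were used for joins and plots.

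The members and the lists were chosen with earlier results of these data known. Named members were, per class, up to 3 called rises and 3 called falls with SCM in shControl, up to 4 of each sign called with both hairpins or in the averaged interaction, and members called against their class with SCM in shControl. Other members and comparisons described, such as Hnrnpa2b1, Hnrnpa3, Hnrnpc, Prpf38a and Sf3a1 with the hairpins, were added outside this rule. The counts of named results that kept their call do not cover them. Alternatives were other pseudocounts, filters and scalings, removal of the GC and length trend, a replicate block, fits of only the groups compared, and leaving out each library. A few results are not reported here, and counts include the members they concern.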

Additional observations from a re-analysis of the deposited data

Results flagged for a closer look

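The response to SCM differed between the hairpins and shControl by the test of that difference itself. Of 65 members 7 were higher with the hairpins and 25 lower (limma, adjusted p under 0.05 over all tested genes). Beside these, 17.2% of all tested genes were higher and 21.5% lower. Members with the same sign for each hairpin and the largest values on the log2 scale were Snrpd2 (-0.92), Lsm4 (-0.70), Snrpg (-0.61) and Lsm2 (-0.57) among the lower responses, and Hnrnpm (0.64), Hnrnpul2 (0.40), Hnrnpu (0.38) and Hnrnph1 (0.35) among the higher. The difference contains the shControl response and is not independent of it. With FPKM sums made equal Snrpd2 was at -0.33 and still passed the test, while Lsm4 (-0.11), Snrpg (-0.02) and Lsm2 (-0.0077) did not (limma adjusted p of 0.198, 0.902 and 0.959). With the GC and length trend removed Hnrnph1 was at 0.02 and no longer passed the test. Its mean fell with SCM from 28.4 to 18.6 FPKM in shControl and from 51.0 to 34.8 with shNdufa5_1. With shNdufa5_2 it went from 21.3 to 22.4, so its value came mainly from the libraries with that label. The libraries labelled shNdufa5_2 kept most of their Ndufa5 RNA, and its part in these differences was not tested.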

How the results depend on the processing

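With FPKM sums made equal, the rises and falls of members were 2 and 47 for SCM in shControl, 2 and 23 with shNdufa5_1 and 1 and 0 with shNdufa5_2. The hairpin comparisons gave 0 and 40 for shNdufa5_2 in PCM, 39 and 9 for shNdufa5_1 in SCM, 30 and 1 for shNdufa5_2 in SCM, and 43 and 1 for the interaction. FPKM sums were 2.90e+05 to 3.04e+05 in shControl PCM and 4.38e+05 to 4.85e+05 in shControl SCM, so this scaling moves all genes. The shares of all tested genes called under it are not given here, and these counts are not read as particular to the members. With fragment totals made equal, a setting chosen after seeing the data, the counts that moved by over 1.5 times were 13 rises with SCM in shControl, 16 falls with SCM in shNdufa5_2, 10 rises with shNdufa5_2 in PCM, 15 rises and 11 falls with it in SCM, and 22 and 15 for the interaction. After quantile normalization they were 10 rises with shNdufa5_2 in PCM, 7 falls with it in SCM, and 13 and 15 for the interaction. With the GC and length trend removed they were 8 falls with SCM in shControl, 16 with SCM in shNdufa5_1, 5 with shNdufa5_2 in PCM, 5 rises with it in SCM and 4 rises for the interaction. The cause of these changes was not tested. With another pseudocount or a stricter filter all 61 named results kept their direction and call, and without a filter 54 did.

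With FPKM sums made equal, 18 named results changed sign on the log2 scale. For SCM in shControl these were Hnrnpdl (-0.46), Hnrnpul1 (-0.38), Sf3a2 (-0.36), Prpf4 (-0.29), Sf3b5 (-0.25), Hnrnpa0 (-0.24), Prpf8 (-0.15), Snrpa1 (-0.15), Sf3b2 (-0.13), Snrpf (-0.13), Hnrnpl (-0.10), Prpf19 (-0.068), Lsm7 (-0.049), Snrpc (-0.016) and Snrpa (-0.0043). For shNdufa5_2 in PCM they were Hnrnpa0 (-0.13), Hnrnpl (-0.0503) and Prpf4 (-0.040). With fragment totals made equal Hnrnpdl (-0.11), Hnrnpul1 (-0.034) and Sf3a2 (-0.0084) changed sign, and after quantile normalization Sf3a2 (-0.011). With the trend removed, with or without the replicate block, Lsm8 (0.12), Sf3b1 (0.093), Prpf4b (0.066), Snrpb2 (0.072) and Sf3a2 (-0.11) did.

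Same-numbered libraries did not deviate together (median correlation 0.00672 over 45 pairs, 0 of them over 0.1), so the numbers were not read as pairs. With the replicate block the members' rises and falls were 27 and 21 for SCM in shControl, 10 and 25 with shNdufa5_1, 6 and 9 with shNdufa5_2, and 7 and 23 for the interaction, and 60 of 61 named results kept their call. The block together with the trend gave 8 falls with SCM in shControl, 16 with SCM in shNdufa5_1, 4 with shNdufa5_2 in PCM, 4 rises with it in SCM and 4 for the interaction.

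Leaving out each library in turn gave 24 to 27 rises and 20 to 22 falls for SCM in shControl, 9 to 12 and 23 to 26 with shNdufa5_1, and 3 to 7 and 8 to 10 with shNdufa5_2. In PCM shNdufa5_1 gave 27 to 31 and 14 to 15, and shNdufa5_2 14 to 19 and 12 to 16. In SCM they gave 20 to 22 and 24 to 26, and 7 to 9 and 16 to 23. The interaction gave 6 to 10 and 21 to 26. Groups of 3 libraries limit what can be detected.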

Other observations

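3 members varied widely among libraries of the same group. Lsm5, a subunit of both LSm rings, was at 13.2, 1.12 and 14.4 FPKM with shNdufa5_1 in PCM and at 9.48, 8.88 and 0.84 with shNdufa5_2 in PCM, while the shControl libraries in PCM lay at 11.9, 12 and 11.3. It rested on 9 to 333 fragments per library. Snrpe was at 28.8, 12.1 and 25.2 FPKM and at 30.0, 22.1 and 13.4 in the same hairpin groups. Both genes were thus lowest in the same library of each of these groups, replicate 2 of shNdufa5_1 and replicate 3 of shNdufa5_2. In SCM both were lowest in replicate 1 of shControl and replicate 3 of shNdufa5_1. In shControl PCM and shNdufa5_2 SCM, however, Lsm5 was lowest in replicate 3, where Snrpe was highest. In shControl PCM Snrpe ran from 16.3 to 36.1 FPKM. Snrpert, the pseudogene of the set (chromosome 2, 131322088 to 131322366, minus strand, 279 bases), was at 24.5, 13.2 and 14.2 FPKM in shControl SCM. Over all libraries and groups it ran from 9.09 to 24.5 FPKM, on 43 to 153 fragments per library. Reads of genes with processed copies can be split between them, which the sources used here do not settle, so these 3 are uncertain.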
